A study of Mus musculus with 17 samples.

Results

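Sorted cells of 2 populations that carried the same red reporter were compared directly, without any bulk tissue as a reference. The first was arteriolar smooth muscle cells (aSMCs), sorted from the cerebral arterioles of SMACreER:Ai14 mice in 2 libraries (replicates 7 and 8). The second was cells labeled as astrocytes, sorted from the cerebral cortex of hGFAPCreER:Ai14 mice in 3 libraries (replicates 1 to 3) and called hGFAPCreER:Ai14 cells here. The 5 libraries were chosen by their labels from the 17 of the series, and the others (aSMCs with another reporter, and whole cortex) were used only where stated. Ai14 places tdTomato behind a stop cassette that Cre removes, and both CreER drivers are transgenes that act only after tamoxifen, SMACreER under the smooth muscle actin promoter and hGFAPCreER under a human GFAP promoter. Both populations therefore carried the reporter and a tamoxifen-inducible Cre, and tdTomato-positive cells were collected by flow cytometry. The labels name only tdTomato as the sorted signal. For adult aSMCs with the other reporter, the methods also describe enriching vessels and removing CD31-positive and CD45-positive cells, and they do not say whether this was done for the 5 libraries. By the methods, mice received tamoxifen as adults, a month or more ahead of any bulk RNA-seq. The methods do not mention hGFAPCreER mice, so the treatment of that group is not described there. Whether each library came from its own animal is not stated for these libraries, so that p-values measure the spread between libraries, which may be technical. Driver, tissue of origin and cell type changed together between the groups and cannot be told apart.

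Smooth muscle cells wrap arterioles in rings and set the diameter of the vessel: calcium entry activates myosin light chain kinase, actin and myosin pull, and the RhoA and cGMP pathways raise or lower the sensitivity of the filaments to calcium. Astrocytes meet the same arterioles from the outside with endfeet that carry the water channel AQP4 and the potassium channel Kir4.1, and they clear glutamate and potassium from the extracellular space. Ependymal cells line the ventricles with motile cilia and the choroid plexus secretes cerebrospinal fluid. Ependymal cells derive from the same radial glia as astrocytes and share with them AQP4, SOX9 and connexin 43.

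The aSMC libraries held 14870507 and 14979228 counts and the hGFAPCreER:Ai14 libraries 4537137, 5183956 and 7390630. Counts were found for 17021 and 16882 genes in aSMCs and for 11405, 9083 and 12827 genes in hGFAPCreER:Ai14 cells. At the depth of the shallowest library (4537137 counts) the expected numbers were 15869 and 15696 against 11405, 8875 and 12495, so the aSMC libraries held more genes at matched depth too. The aSMC libraries were alike (Spearman's rho across genes 0.947, a description in which genes are not replicates), whereas the pairs of hGFAPCreER:Ai14 libraries reached 0.649 to 0.753. Of 12117 genes with at least 10 counts in any hGFAPCreER:Ai14 library, 37.2% had them in all 3 and 30.2% in 1 alone, against 87.2% in both aSMC libraries. Transcripts of the mitochondrial genome took 16.8% and 17.6% of aSMC counts and 10.7% to 12.5% of the others, and Lars2 alone took 3.26% and 3.22% against 8.62% to 12.7%. The part of these differences in the results below was not tested.

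The question was which genes distinguish contractile cells of the arteriole from the hGFAPCreER:Ai14 cells in the same sorting scheme. Levels are CPM, counts divided by the library size after scaling by the trimmed mean of M values (TMM), and fold changes are log2 values of aSMCs over hGFAPCreER:Ai14 cells. In the quasi-likelihood test of edgeR, 0 of 12864 genes tested (0%) had an adjusted p under 0.05. The smallest adjusted p was 0.0509, 13 genes had one under 0.055, all of them higher in aSMCs, and 1529 had one under 0.1 (1243 higher and 286 lower in aSMCs). At an unadjusted p under 0.05 there were 2836 genes, 1978 higher and 858 lower. DESeq2 on the same 5 libraries called 2343 genes at an adjusted p under 0.05, namely 1421 higher (11% of the genes tested) and 922 lower (7.17%), and gave no adjusted p for 509. In both aSMC libraries 4537 genes (35.3%) lay above all 3 hGFAPCreER:Ai14 libraries and 1692 (13.2%) lay below them, and 92.8% of the DESeq2 calls were among these. The calls depended on single libraries: DESeq2 called 703 genes without aSMC replicate 7 and 347 without replicate 8, and 5070, 3611 and 6002 without hGFAPCreER:Ai14 replicate 1, 2 or 3. An edgeR fit with the 6 cortex libraries added, which takes cortex to vary like these cells, called 2222 of 14270 genes, and 72.1% of the DESeq2 calls were made there in the same direction. Below, "called" means a DESeq2 adjusted p under 0.05, "separated" means that both aSMC libraries lay on one side of all 3 others, and no gene described passed edgeR. Counts were also simulated with the spread of these libraries and with only a small share of genes changed. There edgeR called no gene, changed genes included, and most genes that DESeq2 called had not been changed. A DESeq2 adjusted p thus understated the rate of false calls there and is given as a description. That rate need not hold for the real libraries, where the share of changed genes is not known. Where a list is given with the range of DESeq2 calls with 1 library left out, the fewest calls came from leaving out an aSMC library, which leaves 1 sample in that group, and the number of genes tested differed between these runs. Levels are written as aSMC replicates 7 and 8 against hGFAPCreER:Ai14 replicates 1, 2 and 3. The median log2 fold change of all genes tested was 0.21. Calls in each list below stand beside the 11% called as higher and the 7.17% called as lower over all genes. Bounds and ratios of genes with few counts cover counting error only. In every list, genes with few counts in 1 group could pass the filter only through the other, which favors separation in that direction.

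**Figure D1:**
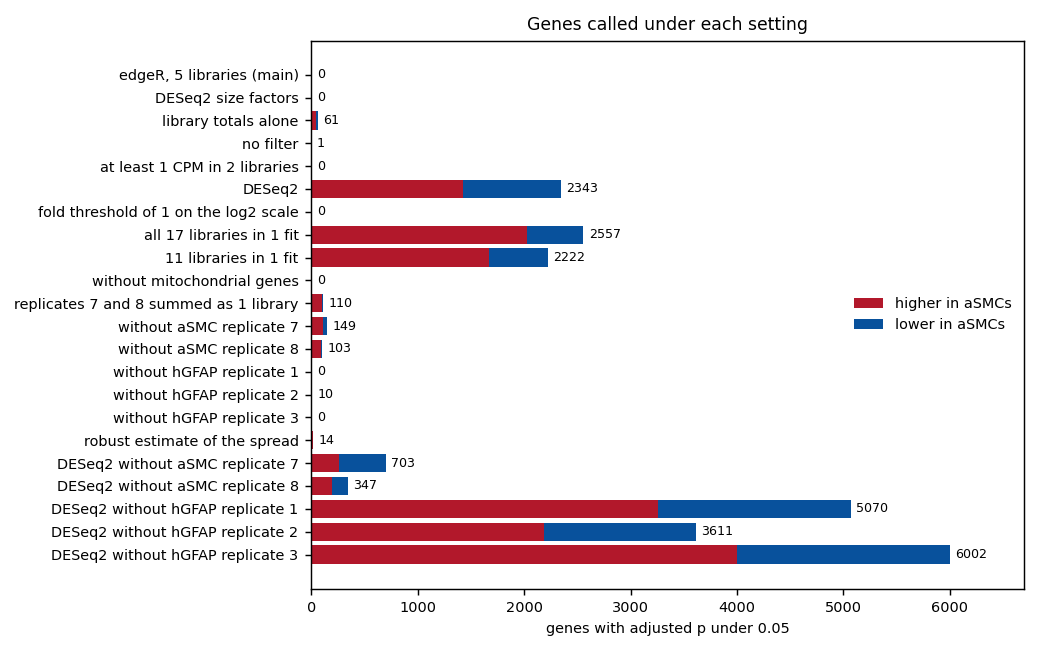
Number of genes with an adjusted p under 0.05 (x axis) under each setting (y axis), with genes higher in aSMCs in red and lower in blue. The edgeR test of the 5 libraries called 0 genes, DESeq2 2343, and the fits that added the cortex libraries (11 libraries) or all others (17 libraries) 2222 and 2557.

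The markers of the labels behaved differently in the 2 populations. Acta2, smooth muscle alpha-actin (chr19:34241090-34255590 in GRCm38, GENCODE M21, minus strand), was at 5487 and 6117 CPM in the aSMC libraries and at 67.8, 180.3 and 165 CPM in hGFAPCreER:Ai14 replicates 1, 2 and 3. The groups did not overlap, with a log2 fold change of 5.40 ± 0.62 (SE) (adjusted p = 0.0608 by edgeR and 2.69e-04 by DESeq2). Aldh1l1, a folate enzyme used as a pan-astrocyte marker (chr6:90486427-90600203, plus strand), was at 0, 127 and 1.01 CPM in the hGFAPCreER:Ai14 libraries and at 0.997 and 0.882 CPM in aSMCs. Only replicate 2 carried it clearly, replicate 1 had no counts (3 counts over the group would be 0.168 CPM), and the gene was too low in the remaining libraries to be tested. Acta2 was higher than Aldh1l1 in CPM per kb of exon as a group mean in hGFAPCreER:Ai14 cells (2642 and 62.7 for Acta2 and 0.208 and 9.42 for Aldh1l1, aSMCs first). Aqp4, by contrast, stood at 1147, 1097 and 1017 CPM there and at 54.4 and 7.05 CPM in aSMCs. The label of astrocytes was thus met by some of its markers and not by Aldh1l1, and the markers of ependyma and choroid plexus described below were high in the same libraries. In bulk samples, fewer cells of a type and less RNA per cell cannot be told apart.

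**Figure D2:**
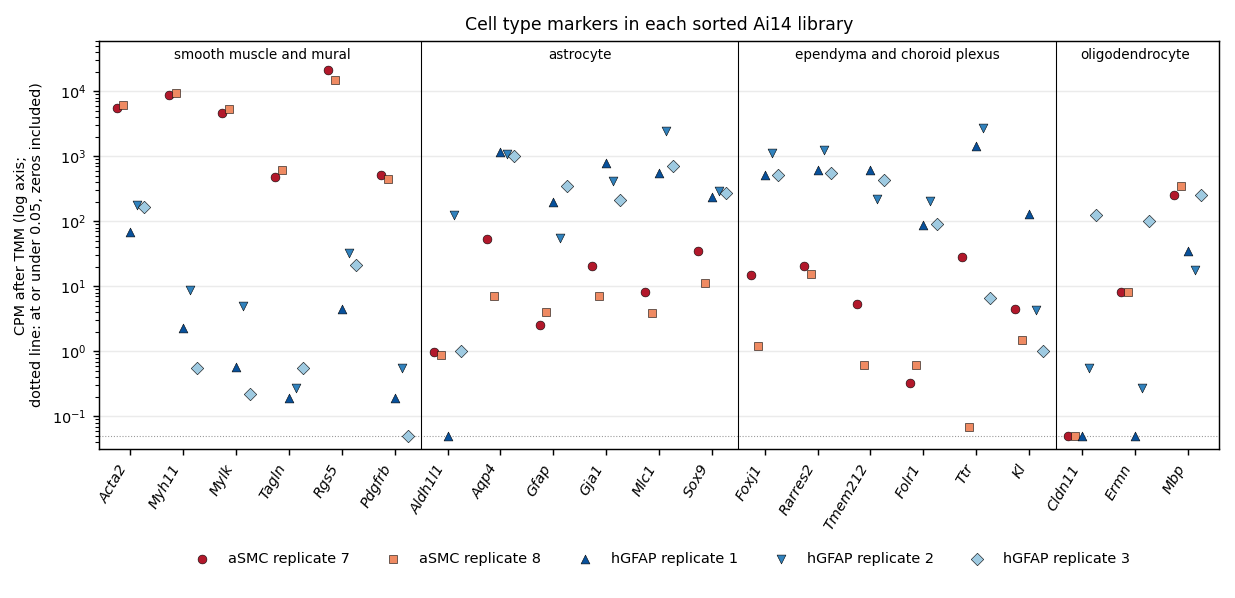
Level of marker genes (x axis, grouped by cell type) in each of the 5 libraries, in CPM after TMM on a log axis, where each symbol is 1 library and values at or under 0.05 sit on the dotted line. Smooth muscle genes were high in both aSMC libraries, Foxj1, Rarres2, Tmem212 and Folr1 were high in all 3 hGFAPCreER:Ai14 libraries, and Aldh1l1 and the oligodendrocyte genes Cldn11 and Ermn were each high in 1 of them.

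The promoters of the smooth muscle genes are shown because the serum response factor and its partner myocardin are known to drive contractile genes through CArG boxes. The 250 bases upstream of the start site were available from RefSeq (GRCm38.p6) for 15 of the 18 contractile genes. An exact CArG box, searched by its name's consensus, which reads the same on both strands, lay in 1 of these 15 promoters (6.67%), that of Myl9, against 135 of 9813 promoters of genes tested (1.38%). In Myl9 (chr2:156775214-156775463, plus strand) it starts at position -161 and is given in capitals, and in Acta2 (chr19:34255374-34255623, minus strand) no exact match lay in this window:
Myl9: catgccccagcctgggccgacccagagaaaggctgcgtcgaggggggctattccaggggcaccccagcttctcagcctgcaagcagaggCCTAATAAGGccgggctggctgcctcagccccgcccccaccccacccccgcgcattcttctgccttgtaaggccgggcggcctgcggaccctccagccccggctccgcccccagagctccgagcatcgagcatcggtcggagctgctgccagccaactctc
Acta2: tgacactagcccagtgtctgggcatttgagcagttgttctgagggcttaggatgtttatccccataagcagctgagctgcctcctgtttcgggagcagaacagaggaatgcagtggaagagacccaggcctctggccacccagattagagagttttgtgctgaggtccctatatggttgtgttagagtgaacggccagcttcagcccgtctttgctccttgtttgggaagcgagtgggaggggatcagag
The full NFI palindrome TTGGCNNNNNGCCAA, the site of a factor family of glia, lay in 0 of 14 promoters of the astrocyte identity list and in 3 of 9813 (0.0306%). Only exact matches were searched, so near matches such as ccctatatgg and ccttgtttgg in Acta2, each 1 base off the CArG consensus, were not marked. A match describes letters and not a bound site, and a missing match says nothing of the factor.

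The contractile apparatus was higher in aSMCs almost throughout. Of 18 genes tested, 17 (94.4%, against 35.3% of all genes) were separated and higher in aSMCs and 0 were lower. Of the 18 genes, 13 were called as higher, against 11% of all genes, and the median log2 fold change was 6.46. Myh11, the myosin heavy chain of smooth muscle, was at 8815 and 9383 CPM against 2.29, 8.81 and 0.559 CPM. Mylk, the kinase that switches myosin on, was at 4719.6 and 5298 CPM against 0.571, 4.96 and 0.224 CPM (log2 fold change 11.40 ± 1.61 (SE), DESeq2 adjusted p = 5.51e-09). Tagln, which binds actin filaments, was at 481 and 612 CPM against 0.190, 0.275 and 0.559 CPM, and its edgeR adjusted p of 0.0535 was among the 13 under 0.055. Within these genes the residual level in hGFAPCreER:Ai14 cells was uneven. Des, the intermediate filament desmin, was at 447 and 527 CPM against 0, 0 and 0.671 CPM. Tpm2, a tropomyosin, was at 1631 and 1509.7 CPM against 0, 4.13 and 0.447 CPM. Lmod1, an actin nucleator, had 3 counts in all in the hGFAPCreER:Ai14 libraries, for a ratio of 2660.0, 95% interval 736 to 21968. These genes were close to absent from the hGFAPCreER:Ai14 libraries, but others were not. Myl9, the regulatory light chain, was at 1736 and 1957 CPM against 499, 3.03 and 48 CPM, with replicate 1 well above the other two. Cald1, the thin filament protein caldesmon, was at 9774 and 9288 CPM against 846, 1762 and 546 CPM. Both were separated but not called (DESeq2 adjusted p = 0.228 and 0.0893). DESeq2 called 7 to 17 of the list with 1 library left out.

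Genes of the wider mural lineage followed, with 91.7% of those tested separated and higher, against 35.3% of all genes. Of 12 tested, 11 were separated and higher and 11 were called (6 to 11 with 1 library left out), with a median of 9.35, or 8.31 with genes at 0 set to their bound. Rgs5, a regulator of G protein signaling, was at 21309 and 14785 CPM against 4.57, 32.2 and 21.5 CPM. Pdgfrb, the receptor that recruits mural cells, was at 519 and 455 CPM against 0.190, 0.551 and 0 CPM, where 3 counts in 3 libraries gave a ratio of 2895, 95% interval 990.4 to 14039. Cspg4, the NG2 proteoglycan, was at 688 and 919 CPM against 6.86, 1.10 and 0 CPM. Of genes linked to pericytes, Higd1b was at 17.6 and 11.7 CPM in aSMCs and Atp13a5 at 43 and 21.8 CPM, both called and with no counts in hGFAPCreER:Ai14 cells (at least 87.2-fold and 193-fold higher). Kcnj8 was at 0.797 and 2.24 CPM in aSMCs and was too low to be tested. Abcc9, the regulatory subunit of the same potassium channel as Kcnj8, overlapped between the groups at 25.2 and 11.5 CPM against 13.3, 0.551 and 16.1 CPM.

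Of 15 mural transcription factors tested, 12 were separated and higher, 1 was separated and lower, and DESeq2 called 10 and 1 of them (6 to 13 and 0 to 1 with 1 library left out). The separated shares were 80% and 6.67%, against 35.3% and 13.2% of all genes. Foxc1, a forkhead factor of brain mural cells, was at 282 and 386 CPM in aSMCs and had no counts in any hGFAPCreER:Ai14 library, which makes it at least 1984-fold higher. Tbx18, a T-box factor of mural cells, was at 106 and 119 CPM against no counts (at least 668-fold). Epas1, the hypoxia factor HIF-2 alpha, was at 5221 and 5456 CPM against 7.81, 8.53 and 1.57 CPM (edgeR adjusted p = 0.0535). Ebf1 was at 818 and 812 CPM against 22.9, 27.8 and 24.3 CPM, with an even residual level among the hGFAPCreER:Ai14 libraries. Myocd, the coactivator myocardin, was separated at 257 and 356 CPM against 30.7, 0.826 and 0 CPM but was not called, with one hGFAPCreER:Ai14 library well above the others. Srf, its partner, overlapped at 56.2 and 67.3 CPM against 4.19, 0.275 and 71.2 CPM.

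Calcium and potassium handling genes lay on the smooth muscle side throughout, where 35.3% of all genes were separated and higher and 11% were called as higher. All 17 genes tested were separated and higher in aSMCs, 12 were called (4 to 14 with 1 library left out), and the median was 7.15 (6.93 with bounds). Cacna1c, the pore of the L-type calcium channel through which smooth muscle depolarization is coupled to contraction, was at 298 and 341 CPM against 0.381, 0.275 and 1.12 CPM (log2 fold change 8.98 ± 1.13 (SE), DESeq2 adjusted p = 1.04e-08). Itpr1, the calcium release channel gated by inositol trisphosphate, was at 687 and 739.5 CPM against 0.762, 1.38 and 2.46 CPM (edgeR adjusted p = 0.0551). Ryr2, the ryanodine receptor that produces calcium sparks, was at 91.8 and 126 CPM against 0.190, 0.551 and 1.45 CPM. Kcnma1, the pore of the BK channel that these sparks open, was at 146 and 136 CPM against 2.29, 0 and 1.34 CPM, whereas its smooth muscle subunit Kcnmb1 was at 263 and 291 CPM against 112, 42.4 and 128 CPM and was not called. Ano1, a calcium-activated chloride channel, was at 317 and 289 CPM with 3 counts in hGFAPCreER:Ai14 replicate 2 alone (ratio 1803, 95% interval 617 to 8746). Kcnk3 and Piezo1 had no counts in any hGFAPCreER:Ai14 library and were at least 239-fold and 193-fold higher in aSMCs. Atp2a2, the calcium pump of the reticulum in most cells, was at 2104 and 2034 CPM against 260.3, 1157 and 291 CPM and was not called.

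In the pathway that relaxes smooth muscle through nitric oxide and cGMP, 7 of 8 genes tested were separated and higher, 1 was lower, and 4 and 1 were called (4 to 6 and 0 to 1 with 1 library left out). The separated shares were 87.5% and 12.5%, against 35.3% and 13.2% of all genes. Both subunits of the nitric oxide receptor, soluble guanylate cyclase, were aSMC genes here: Gucy1a1, the alpha subunit, was at 809.9 and 806 CPM against 0, 2.20 and 0 CPM. Gucy1b1, the beta subunit, was at 297 and 272 CPM against 0, 0 and 0.112 CPM. Pde5a, which breaks down cGMP, was at 805 and 789 CPM against 0.381, 0 and 2.35 CPM. Mrvi1, a target of the cGMP kinase that brakes calcium release, was at 632 and 733 CPM against 0, 0.826 and 0.112 CPM. Each of these was all but absent from hGFAPCreER:Ai14 cells. The kinase itself, Prkg1, was less unequal at 846 and 794 CPM against 462, 135 and 64.3 CPM (DESeq2 adjusted p = 0.463). Pde3a was at 2238 and 2270.5 CPM in aSMCs but reached 344 CPM in hGFAPCreER:Ai14 replicate 2, against 1.14 and 1.68 CPM in replicates 1 and 3, and received no adjusted p from DESeq2. Npr2, the receptor of C-type natriuretic peptide, went the other way at 2.52 and 0.203 CPM against 5.71, 17.6 and 48.1 CPM (log2 fold change -4.11 ± 2.08 (SE), DESeq2 adjusted p = 0.0397). Among 11 genes of the RhoA pathway, 8 were separated and higher, 7 were called (2 to 8 with 1 library left out) and 0 were lower. The separated share of the RhoA genes was 72.7%, against 35.3% of all genes. Ppp1r12a and Ppp1r12b, the targeting subunits of myosin phosphatase, were at 1529.6 and 1517 CPM against 0.952, 2.75 and 14.8 CPM and at 959.5 and 1158 CPM against 1.90, 5.23 and 4.25 CPM. Ppp1r14a, the smooth muscle inhibitor of that phosphatase, had 10.4 and 9.70 CPM in aSMCs and no counts in the others (at least 59.8-fold). The kinases Rock1 and Rock2 were both called, at 1177 and 1252 CPM against 12.8, 143 and 30.3 CPM and at 830.1 and 898 CPM against 17.5, 3.58 and 45.1 CPM, while the GTPase Rhoa that activates them overlapped, at 312 and 265 CPM against 342, 417 and 169.7 CPM.

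Receptors for vasoactive signals lay mostly on the aSMC side. Of 19 tested, 14 (73.7%, against 35.3% of all genes) were separated and higher in aSMCs, 2 (10.5%, against 13.2%) were separated and lower, and DESeq2 called 11 and 2 (1 to 19 and 0 to 2 with 1 library left out). The endothelin receptors lay on opposite sides. Ednra, the receptor that constricts smooth muscle, was at 750.5 and 707 CPM against 0.571, 0.826 and 1.23 CPM (log2 fold change 9.66 ± 0.88 (SE), edgeR adjusted p = 0.0535, DESeq2 3.40e-11). Ednrb, the second endothelin receptor, was at 7.97 and 9.36 CPM against 162, 515 and 41 CPM (log2 fold change -4.78 ± 1.41 (SE), edgeR adjusted p = 0.107, DESeq2 0.00467). The receptor for the dilator peptide CGRP is built from Calcrl and Ramp1. Calcrl was at 65.6 and 88.1 CPM in aSMCs with 3 counts in all in the others (ratio 456, 95% interval 156 to 2212). Ramp1 was at 15.3 and 4.20 CPM against 158, 442 and 85.4 CPM (log2 fold change -4.55 ± 1.30 (SE), DESeq2 adjusted p = 0.00539), so the chains of that receptor lay on opposite sides. Receptors for transmitters were on the aSMC side. Npy1r, a neuropeptide Y receptor, was at 498 and 490.2 CPM against 1.14, 24.8 and 0.224 CPM. Htr1b, a serotonin receptor, was at 58.1 and 54.1 CPM against 0.190, 0 and 0.335 CPM. P2rx1, an ATP-gated channel of smooth muscle, was at 29.2 and 42.1 CPM against 0, 0.275 and 0.112 CPM. Tbxa2r, the thromboxane receptor, had 7.57 and 14 CPM in aSMCs and no counts in the other libraries (at least 63.8-fold). Receptors such as Agtr1a, Avpr1a and Adra1d were at or under 0.930 and 3.05 CPM in the aSMC libraries, had no counts in the others and were too low to be tested.

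**Figure D3:**
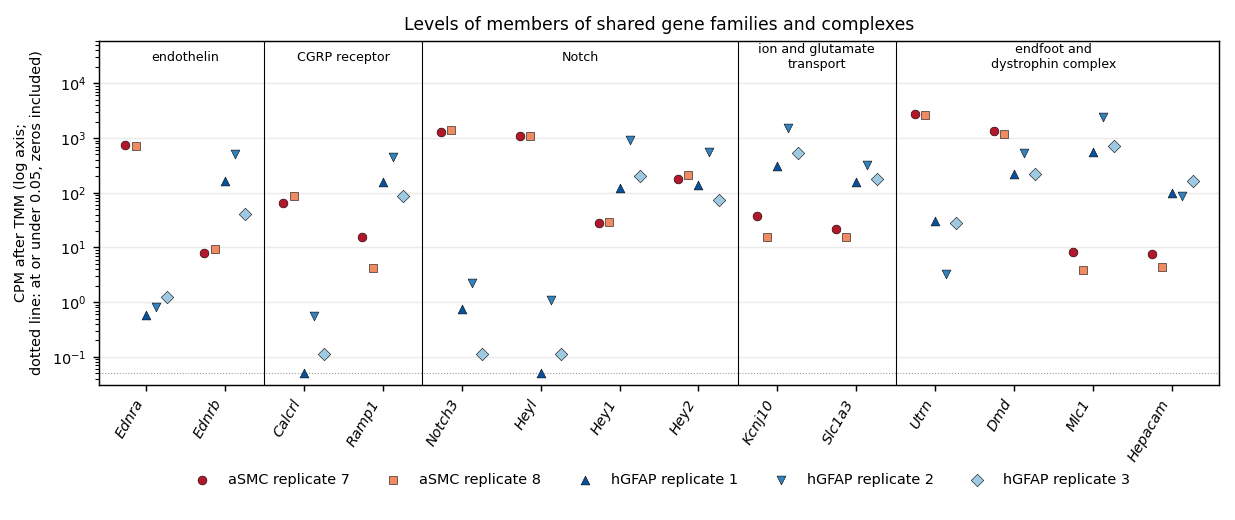
Level of receptors, Notch genes, transporters and dystrophin complex genes (x axis) in each of the 5 libraries, in CPM after TMM on a log axis, with values at or under 0.05 on the dotted line. Ednra, Calcrl, Notch3, Heyl and Utrn were higher in both aSMC libraries, and Ednrb, Ramp1, Hey1, Kcnj10, Slc1a3, Mlc1 and Hepacam in all 3 hGFAPCreER:Ai14 libraries.

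The matrix genes were likewise higher in aSMCs, with 85.7% of basement membrane and 100% of artery wall genes tested separated, against 35.3% of all genes. Of 14 basement membrane genes tested, 12 were separated and higher and 9 were called, and of 10 artery wall genes 10 were separated and 7 called, with 0 lower in either list (3 to 11 and 1 to 10 called with 1 library left out). Col4a1 and Col4a2, which form the main basement membrane collagen, were at 494 and 485 CPM against 2.67, 1.38 and 0 CPM and at 597 and 596 CPM against 17.7, 1.65 and 0.335 CPM. Nid1, which links laminin to it, was at 638 and 513 CPM against 0, 2.20 and 0.224 CPM. Col18a1 had 65.8 and 69.6 CPM in aSMCs and no counts in the others (at least 402-fold). Lamc1, the common laminin gamma chain, was separated but not called, at 859 and 895 CPM against 40.6, 706 and 23.8 CPM, with hGFAPCreER:Ai14 replicate 2 close to the aSMCs. Sparc overlapped, at 1186 and 923 CPM against 927, 219 and 982 CPM. The artery wall list summed to 21.1, 44.6 and 33.2 CPM in the hGFAPCreER:Ai14 libraries. Bgn, a small proteoglycan of the vessel wall, was at 1078 and 1105 CPM against 0.190, 8.53 and 11.4 CPM. Mgp, an inhibitor of calcification, was at 253 and 262 CPM against 0.571, 2.20 and 0.559 CPM. Eln, elastin, was at 72.9 and 101 CPM against 0, 3.58 and 0.559 CPM.

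On the glial side, 9 of 11 astrocyte identity genes tested were separated and lower in aSMCs, against 13.2% of all genes, and 6 were called (1 to 9 with 1 library left out). The median log2 fold change was -3.86, and 7.17% of all genes were called as lower. Mlc1, a membrane protein of perivascular endfeet, was at 8.10 and 3.87 CPM against 548, 2420.3 and 701 CPM (log2 fold change -7.67 ± 1.22 (SE), edgeR adjusted p = 0.0828, DESeq2 4.47e-07). Gfap, the astrocyte intermediate filament whose human promoter drives the Cre, was at 2.59 and 4.07 CPM against 197, 54.8 and 354 CPM. Gja1, connexin 43, was at 20.7 and 7.12 CPM against 784, 417 and 214 CPM. The order of the 3 hGFAPCreER:Ai14 libraries thus differed from gene to gene. Aldoc, a glycolytic enzyme of astrocytes, was at 20.7 and 29.1 CPM against 219.8, 439 and 419.9 CPM. Sox9, a glial transcription factor, was at 34.8 and 11.4 CPM against 240.1, 295 and 269 CPM, with nearly the same level in each hGFAPCreER:Ai14 library. Other members were at or near 0 in those libraries and were not tested: Gjb6 (connexin 30) at 0, 0 and 0 CPM, Acsbg1 at 0, 0.551 and 0.112 CPM, Ntsr2 at 0.190, 0 and 4.14 CPM and Cldn10 at 0, 0 and 0.112 CPM. Summed counts in aSMCs were 32 for Gjb6 (at least 6.38-fold higher there) and 39 for Acsbg1 (ratio 7.78, interval 2.47 to 39.3). Cldn10 had 7 against 1 (interval 0.538 to 189, which includes 1), and Ntsr2 was lower in aSMCs, with 21 counts against 38. The edgeR fit of 11 libraries tested all 16 members and called 1 as higher and 7 as lower in aSMCs. Fgfr3 and Slc39a12 each had 0 CPM in replicate 2, the library that carried Aldh1l1, and 36.6, 0 and 60.2 CPM and 45.7, 0 and 23.3 CPM in replicates 1 to 3.

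Of 13 transport and clearance genes tested, 7 (53.8%, against 13.2% of all genes) were separated and lower in aSMCs, 1 was separated and higher, and 5 and 1 were called (0 to 7 and 0 to 1 with 1 library left out). Slc1a3, the glutamate transporter GLAST, was at 21.6 and 15.8 CPM against 159, 327 and 179 CPM, whereas Slc1a2, the transporter GLT-1, overlapped at 223 and 479 CPM against 439.7, 1359.8 and 286 CPM. Kcnj10 and Kcnj16, subunits of the glial inward rectifier, were at 38.2 and 15.3 CPM against 309, 1505 and 530.4 CPM and at 30.2 and 5.29 CPM against 195, 441 and 334 CPM. Slc38a3, which exports glutamine, was at 4.52 and 1.29 CPM against 149, 61.1 and 99.3 CPM. For comparison with the calls of this list, 7.17% of all genes were called as lower and 11% as higher.

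In the endfoot and dystrophin complex, 4 of 12 tested (33.3%, against 13.2% of all genes) were separated and lower in aSMCs and called, and 3 (25%, below the 35.3% of all genes) were separated and higher with 1 called. Hepacam, an adhesion partner of MLC1, was at 7.51 and 4.34 CPM against 97.9, 87.3 and 162 CPM. Utrn, the dystrophin relative utrophin, was at 2769 and 2674 CPM against 30.7, 3.30 and 28.1 CPM (log2 fold change 7.04 ± 1.08 (SE), DESeq2 adjusted p = 9.72e-06), and Dmd, dystrophin, at 1367 and 1207 CPM against 221, 539 and 222 CPM without a call. With 1 library left out, DESeq2 called 1 to 4 of the list as lower and 1 to 2 as higher. Among 15 glial transcription factors tested, 4 were separated and lower (3 called) and 4 separated and higher (1 called), each 26.7% of the list, against 13.2% and 35.3% of all genes. For both this list and the endfoot list, the shares called over all genes were 7.17% lower and 11% higher. Sox2, a factor of neural stem cells and glia, was at 1.73 and 0.271 CPM against 67, 445 and 40.0 CPM. Id4, an inhibitor of differentiation, was at 31 and 17.2 CPM against 758, 1414 and 186 CPM. Tcf7l1, a Wnt effector, was at 93.1 and 91.6 CPM against 0.190, 1.93 and 0 CPM and was called as higher in aSMCs, while Nfia, a driver of gliogenesis, was at 889 and 946 CPM against 235, 246 and 199.7 CPM and was separated without a call. DESeq2 called 0 to 7 of these factors as lower and 0 to 5 as higher with 1 library left out.

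Secreted and phagocytic genes of astrocytes did not follow their list. Apoe and Clu, the apolipoproteins, were lower in aSMCs at 27.6 and 25.4 CPM against 502, 489.5 and 569 CPM and at 47.7 and 27.3 CPM against 387, 259 and 692 CPM, both called. Sparcl1, a synaptogenic protein that vascular cells also make, was at 6138 and 7543 CPM against 27.6, 172 and 76.6 CPM (log2 fold change 6.22 ± 0.88 (SE), DESeq2 adjusted p = 2.04e-04), and Mertk, a receptor for engulfment, at 259 and 250.1 CPM against 0, 4.96 and 3.91 CPM. Of 12 tested, 6 (50%, against 35.3% of all genes) were separated and higher in aSMCs with 3 called, and 2 (16.7%, against 13.2%) were separated and lower, both called (0 to 5 and 0 to 2 with 1 library left out). Of 14 cholesterol synthesis genes tested, 3 (21.4%, below the 35.3% of all genes) were separated and higher and 4 (28.6%, against 13.2%) lower. Over all genes 7.17% were called as lower, close to the share of this list. DESeq2 called 1 as lower and 0 as higher (0 to 4 and 0 to 1 with 1 library left out), and the call was Sqle, which makes squalene epoxide, at 24.4 and 25.3 CPM against 253, 592 and 63.8 CPM.

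Notch genes, which set mural identity and keep glial progenitors, lay mostly on the aSMC side. Of 13 tested, 9 (69.2%, against 35.3% of all genes) were separated and higher in aSMCs, 1 (7.69%, against 13.2%) was lower, and 4 and 1 were called (3 to 7 and 0 to 1 with 1 library left out). The receptor Notch3, which is largely restricted to mural cells, was at 1292 and 1393 CPM against 0.762, 2.20 and 0.112 CPM (log2 fold change 10.41 ± 1.39 (SE), DESeq2 adjusted p = 1.72e-08), while Notch2 was at 237 and 254 CPM against 174, 164 and 36.9 CPM without a call. The Notch target Heyl was at 1092 and 1070.4 CPM against 0, 1.10 and 0.112 CPM, and Nrarp, a feedback inhibitor, was at 113 and 101 CPM against 0, 0.275 and 0 CPM. The target Hey1 was at 27.5 and 28.7 CPM against 119.6, 931 and 200.2 CPM (log2 fold change -3.89 ± 1.21 (SE), edgeR adjusted p = 0.123, DESeq2 0.0204), Hey2 overlapped at 179 and 212 CPM against 136, 551 and 72.2 CPM, and Hes5, a target in glial progenitors, had no counts in any hGFAPCreER:Ai14 library. Within the Hey family, Heyl thus lay on the aSMC side, Hey1 on the other, and Hey2 on neither.

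Glutamate receptor genes were low in both populations, with sums over 22 genes of 58.8 and 55.8 CPM in aSMCs and 8.38, 10.46 and 17.7 CPM in hGFAPCreER:Ai14 cells. Of 9 tested, 6 were separated and higher in aSMCs, 2 were called (0 to 7 with 1 library left out) and 0 were lower. Grin2d, an NMDA receptor subunit, had 15.1 and 11.7 CPM in aSMCs and no counts in the others (at least 79.6-fold), and Grik5, a kainate receptor subunit, had 10.9 and 16.8 CPM with 1 count in the others (ratio 246, 95% interval 43.9 to 9736). Grin1, the obligatory NMDA receptor subunit, was at 0.930 and 0.882 CPM in aSMCs against no counts, at least 5.38-fold higher, and was too low to be tested. Neuron markers were higher in the same libraries: 8 of 8 tested were separated, 2 were called (0 to 9 with 1 library left out), and the summed level was 178 and 233 CPM against 1.52, 7.43 and 30.0 CPM. Only 9 of the 22 receptor genes and 8 of the 14 neuron markers were tested. Tubb3, a neuron marker that was not tested, went the other way, with 5 counts in aSMCs against 139 in hGFAPCreER:Ai14 cells. Members with few counts in hGFAPCreER:Ai14 cells could pass the filter only through the aSMC libraries, which favors separation in this direction. The separated shares were 66.7% and 100%, against 35.3% of all genes, and 11% of all genes were called as higher. The part of the neuron markers in the glutamate receptor values was not tested.

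Markers of ependyma and choroid plexus were the highest of the lists of other cell types in hGFAPCreER:Ai14 cells. Of those tested, 77.8% were separated and lower in aSMCs, against 13.2% of all genes, and 7.17% of all genes were called as lower. Of 9 tested, 7 were separated and lower in aSMCs, 8 were called (2 to 9 with 1 library left out), and the median log2 fold change was -6.53. Foxj1, the master regulator of motile cilia, was at 15.1 and 1.22 CPM against 524, 1138 and 525 CPM (log2 fold change -6.47 ± 1.45 (SE), edgeR adjusted p = 0.0922, DESeq2 9.73e-05). Rarres2, the chemokine-like protein chemerin, was at 20.7 and 15.4 CPM against 609, 1255 and 546 CPM. All 3 hGFAPCreER:Ai14 libraries thus carried these genes. The cilia genes Tmem212, Ccdc153 and Rsph1 were at 608, 219 and 427 CPM, at 394, 651 and 231 CPM and at 364, 629 and 432 CPM in replicates 1, 2 and 3. Folr1, a folate receptor of the choroid plexus, was at 0.332 and 0.610 CPM against 88.7, 206 and 90.6 CPM. Ttr, the transthyretin of choroid plexus epithelium, was at 1443, 2699 and 6.71 CPM, far lower in replicate 3 than in replicates 1 and 2, and Kl, a choroid plexus gene, was at 131, 4.41 and 1.01 CPM and high in replicate 1 alone. Summed over 10 genes the list reached 4324, 7121 and 2295 CPM, against 3458, 5589.7 and 3362 CPM for the 16 astrocyte identity genes in the same libraries, and 99.4 and 22.7 CPM in aSMCs. The larger of the aSMC sums came from replicate 7, and Ttr was at 28.7 and 0.0678 CPM in aSMC replicates 7 and 8. Because Aqp4, Sox9, Sox2 and Gja1 are also known from ependymal cells, the values of the glial lists above stand beside these markers, and their part in the glial differences was not tested.

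**Figure D4:**
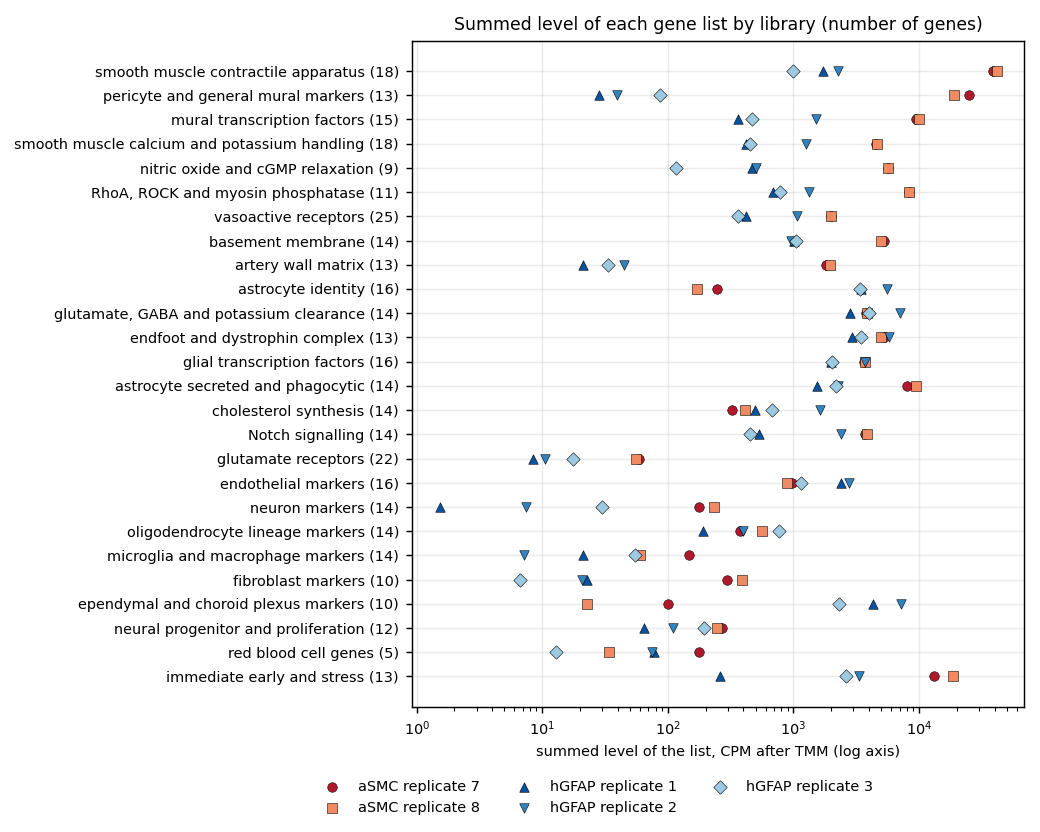
Summed level of each gene list (y axis, number of genes in brackets) in each of the 5 libraries, in CPM after TMM on a log axis. The contractile list reached 38992 and 41397 CPM in aSMCs, and the ependymal and choroid plexus list 4324, 7121 and 2295 CPM in the hGFAPCreER:Ai14 libraries.

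Markers of other cell types were found at lower levels. Oligodendrocyte genes did not move together, with 50% of those tested separated and higher and 16.7% lower, against 35.3% and 13.2% of all genes. Of 6 tested, 3 were separated and higher in aSMCs and 1 lower, and 2 and 1 were called (0 to 6 and 1 with 1 library left out). Mobp, a myelin protein, was at 71.3 and 154 CPM against 2.86, 0.275 and 1.45 CPM and called as higher. Gpr17, a receptor of oligodendrocyte precursors, had no counts in hGFAPCreER:Ai14 cells and was called, at least 24.9-fold higher. Cnp, an enzyme of myelin, was at 9.23 and 6.31 CPM against 151, 379.6 and 74.8 CPM and called as lower. Some of the genes were high in hGFAPCreER:Ai14 replicate 3 alone: Cldn11, a tight junction protein of myelin, was at 0, 0.551 and 126 CPM in replicates 1 to 3, Ermn at 0, 0.275 and 102 CPM and the lineage factor Olig2 at 0, 0 and 28.1 CPM. Mbp, myelin basic protein, was at 256 and 347 CPM against 34.5, 17.9 and 251 CPM and separated in the aSMC direction without a call. Endothelial markers were higher in aSMCs, with 14 of 15 tested separated and 9 called, and 1 lower and called (2 to 11 and 0 to 1 with 1 library left out). These were 93.3% and 6.67% of the endothelial genes tested, against 35.3% and 13.2% of all genes separated higher and lower. The shares called over all genes were 11% higher and 7.17% lower. Flt1, a VEGF receptor, was at 185 and 175 CPM against 0.381, 0.826 and 0.112 CPM and Pecam1, the CD31 antigen of the gate named above, at 209 and 179 CPM against 53.7, 86.4 and 51.8 CPM. The exception was Slc2a1, the glucose transporter GLUT1 of endothelium, choroid plexus and astrocytes, at 192 and 187 CPM against 2314, 2636 and 1084 CPM (log2 fold change -3.41 ± 0.67 (SE), DESeq2 adjusted p = 0.0163). Without Slc2a1 the 15 remaining endothelial genes summed to 779 and 694 CPM in aSMCs and to 59.4, 112 and 59.4 CPM in the others. Microglial and macrophage markers were separated and higher for 8 of 10 tested with 4 called (0 to 9 with 1 library left out), at sums of 146 and 60.4 CPM against 21.1, 7.16 and 54.8 CPM. Of 5 fibroblast markers tested 3 were separated and higher and 2 called (0 to 3 with 1 library left out, 0 without either aSMC library). The shares separated and higher were 80% for the microglial and 60% for the fibroblast list, against 35.3% of all genes. Only 10 of the 14 microglial and 5 of the 10 fibroblast markers were tested. Of the microglial genes tested, 4 had no counts in hGFAPCreER:Ai14 cells and passed the filter through the aSMC libraries alone, which favors separation in this direction. Col1a2 was at 168 and 264 CPM against 13.9, 3.85 and 1.45 CPM and Col3a1 at 68 and 66.1 CPM against 0.571, 3.85 and 0.224 CPM. Dcn, Fbln1, Lum and Dpt were low in both groups and did not share this difference. Their summed counts, aSMCs first, were 43 against 19 for Dcn, 16 against 38 for Fbln1, 4 against 6 for Lum and 6 against 4 for Dpt. Among 6 progenitor and proliferation genes tested, the 1 call was Nes, the intermediate filament nestin, at 199.9 and 184 CPM against 0.190, 0.275 and 0.224 CPM. Over all genes 11% were called as higher. Of 5 hemoglobin and heme genes, 0 were called. The part of these cell types in the differences above was not tested.

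Immediate early and stress genes were separated and higher in aSMCs for 12 of 13 tested, and 5 were called (1 to 9 with 1 library left out). The separated share was 92.3%, against 35.3% of all genes. Fos was at 866 and 1196 CPM against 12, 47.9 and 94.8 CPM and Hspa1a, a heat shock chaperone, at 1487 and 1023 CPM against 0.762, 3.30 and 9.73 CPM, both called. Egr1 was at 2929 and 4689.5 CPM against 1.33, 821 and 342 CPM and Zfp36, which degrades cytokine messages, at 2457 and 3997 CPM against 36.4, 33.3 and 777 CPM, separated but not called. The list summed to 13118 and 18521 CPM in aSMCs and to 259, 3330 and 2627 CPM in the others, lowest in hGFAPCreER:Ai14 replicate 1. The part of these genes in other results was not tested.

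**Figure D5:**
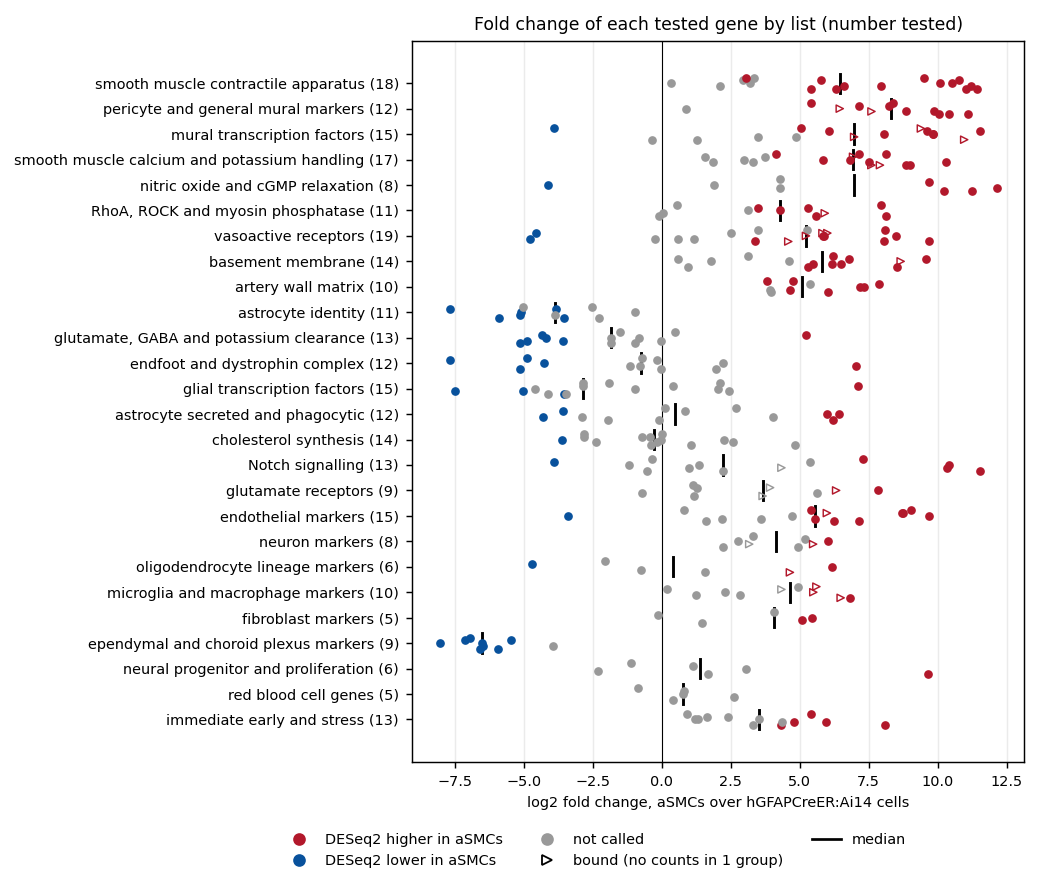
Log2 fold change of aSMCs over hGFAPCreER:Ai14 cells (x axis) for each tested gene of each list (y axis, number tested in brackets), with DESeq2 calls in red and blue, uncalled genes in gray, bounds from 3 counts as open triangles and medians as black bars. The contractile list, the pericyte and general mural list and the calcium list lie to the right of 0. The ependymal and choroid plexus list lies to the left, with a median of -6.53.

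By size of fold among called and separated genes of at least 10 CPM, the highest in aSMCs were genes that the hGFAPCreER:Ai14 libraries lacked. Aspn, a small matrix proteoglycan, was at 350.2 and 318 CPM (at least 1988-fold) and Prss23, a secreted protease, at 213 and 154 CPM (at least 1091-fold). Ldb3, a muscle Z-disc protein, was at 142 and 182 CPM (at least 963-fold), Rasl12 at 128 and 187 CPM (at least 933-fold) and Kcne4, a potassium channel subunit, at 133 and 132 CPM (at least 789-fold). Cysltr2, a leukotriene receptor, was at 139 and 132 CPM (at least 804-fold) and Nkx6-1, a homeobox factor, at 133 and 118 CPM (at least 746-fold). Inpp4b, a phosphoinositide phosphatase, was at 829.9 and 696 CPM with 1 count in the others, for a ratio of 13614, 95% interval 2443 to 537740.0. Foxc1, given above, was also among the 10 largest.

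In the other direction the 10 genes were uneven among the hGFAPCreER:Ai14 libraries. Otx2, a homeobox factor of the choroid plexus, was at 72.2, 393 and 129 CPM in replicates 1, 2 and 3 against 0.266 and 0 CPM in aSMCs, and Cnmd, chondromodulin, was at 74.6, 7.98 and 199 CPM. A2m, a protease inhibitor, was at 9.33, 220.2 and 10.5 CPM and Plin5, a lipid droplet protein, at 24.6, 186 and 24.8 CPM. Zfp419, annotated as an unprocessed pseudogene, was at 31.6, 0.275 and 171 CPM. Hkdc1, a hexokinase relative, was at 3.81, 65 and 86.1 CPM and Wdr93 at 96.5, 1.10 and 3.47 CPM. Ttc39d was at 8.19, 0.551 and 66.6 CPM, Spsb4 at 5.14, 60.6 and 1.01 CPM and Caps2 at 1.71, 186 and 26.7 CPM. In 7 of these 10 genes the highest of the 3 libraries was over 5 times the next.

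The highest levels per kb of exon were those of mitochondrial genes and of Gm20594 in both populations. The group means of mt-Co1, a subunit of cytochrome c oxidase, were 38889 and 25221 CPM per kb in aSMCs and hGFAPCreER:Ai14 cells, and those of mt-Cytb, a subunit of complex III, were 20506 and 13874. Gm20594, a predicted gene, was at 23194 and 89908 CPM per kb and shared 61 of its 425 stretches of 25 bases with mt-Rnr2, a ribosomal RNA of mitochondria, so its value is uncertain. mt-Co3 was at 3762 and 3977 CPM against 10649, 14787 and 8779.8 CPM, and mt-Nd4 at 24970.0 and 28055 CPM against 9027, 17743 and 7175 CPM, on the CPM scale, so mitochondrial genes lay on both sides without a call.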

How the data were processed

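Bulk RNA-seq libraries of tdTomato-sorted cells (NuGEN Ovation kits) were analysed from raw counts of reads per gene symbol deposited by the authors, for 21640 genes and with no normalization. The submitters' processing notes name Trim Galore 0.6.7, FastQC 0.11.9, MultiQC 1.13, Salmon 1.4.0 and GRCm38, while the study's methods name TopHat and htseq-count for other samples of the series. For the annotation and strand setting: not given in the sources used here. All columns were mapped to samples by name. edgeR 4.0.16 in R 4.3.3 was run on the 5 libraries, with filterByExpr (minimum count 10), TMM scaling, the quasi-likelihood test (glmQLFit, glmQLFTest) and p-values adjusted by Benjamini-Hochberg, with a threshold of 0.05. DESeq2 1.42.0, the study's tool, was the alternative that supplied the calls described, because edgeR made none. This choice was made after seeing the data. Both tools were run on simulated counts with a small share of genes changed, where edgeR called none of the changed genes and most of the DESeq2 calls were unchanged genes. Folds of genes without counts in a group are bounds from 3 counts over the group, and ratios of genes with 1 to 3 counts carry exact Clopper-Pearson intervals at 95%. Exon lengths came from GENCODE M21 by symbol (97.3% matched). Tables were made in Python 3.11.15 (pandas 2.3.3, scipy 1.17.1) and figures with matplotlib 3.10.9.

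The members and the 26 gene lists were chosen with earlier results of these data known. The rule named, of each list, the 2 highest genes and the 2 with the largest fold, members of other cell types of at least 10 CPM, members called against their list's side, the 10 largest folds each way and the 5 highest genes per kb. As edgeR called none, the parts that needed calls used DESeq2. Some genes that the rule named are not reported here. Further list members in the text were chosen after their values were seen. Alternatives were DESeq2's size factors, library totals, 2 other filters, DESeq2, a fold threshold of 1 (log2), fits of 11 and 17 libraries, leaving out mitochondrial genes or each replicate, and summing the aSMC libraries, with a robust spread and DESeq2 without each replicate added later.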

Additional observations from a re-analysis of the deposited data

How the results depend on the processing

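The count of genes past the threshold was the result that changed. It was 0 in the edgeR fit of 5 libraries, with DESeq2's size factors, with genes kept at 1 CPM or more in 2 libraries, against a fold threshold of 1 and without mitochondrial genes. It was 61 with library totals alone, 1 with no filter, 14 with a robust spread, 110 with the aSMC libraries summed as 1, 2222 and 2557 in the fits of 11 and 17 libraries, and 2343 by DESeq2.
Leaving out 1 library at a time gave 0 to 149 genes by edgeR and 347 to 6002 by DESeq2, with fewer DESeq2 calls without an aSMC library and more without an hGFAPCreER:Ai14 library (703 and 347 without aSMC replicates 7 and 8, and 5070, 3611 and 6002 without hGFAPCreER:Ai14 replicates 1, 2 and 3). A lone aSMC library is taken to vary like the other group, and the cause of the differences was not tested. Of 2922 fold changes of the genes named, over all alternatives, 2911 kept their sign. Of 546 list medians, 12 took another sign, in the oligodendrocyte, red blood cell and astrocyte secreted lists, and the ependymal median was -8.27 without aSMC replicate 7.

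Few library-dependent genes changed sign. With 1 library left out, the log2 fold change by edgeR ranged from -2.71 to 5.86 for Ermn, highest without hGFAPCreER:Ai14 replicate 3. It ranged from -0.86 to 0.94 for Hey2 and from -0.44 to 0.20 for Rhoa, highest without replicate 2, and from -4.90 to 0.10 for Kl, highest without replicate 1. By DESeq2 it was 5.74 for Ermn without replicate 3, 0.79 for Hey2 and 0.0561 for Rhoa without replicate 2, -0.0306 for mt-Co1 without replicate 3, and -0.0116 and -0.0878 for mt-Cytb without replicates 1 and 3. No paired analysis was possible because the replicate numbers of the aSMC libraries (7 and 8) and of the hGFAPCreER:Ai14 libraries (1 to 3) do not overlap. An exact permutation test of 2 against 3 libraries has 10 assignments and cannot go below p = 0.1. Genes at a few counts in the shallower hGFAPCreER:Ai14 libraries could not be tested at this depth.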
